A study of Arabidopsis thaliana with 7 samples.

Results

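UDP-glycosyltransferases (UGTs) of the plant-type family, leaving out the UGT73 group and the salicylate enzymes UGT76B1 and UGT74F1, were followed in Arabidopsis thaliana leaves sprayed with salicylic acid (SA), a phenolic hormone that plants make in immune responses. Members were all probe sets that named 1 gene whose symbol begins with UGT and a digit, apart from those exclusions. There were 38 of 13513 probe sets, 1 for each of 38 genes in 10 numbered families. The rule uses gene symbols and no measured value, although it was written with earlier results of these data known. The 38 probe sets all carry the plain suffix that the array maker gives to sets designed for 1 transcript, although close relatives may still share signal. A further 8 UGT genes of the RefSeq gene table had no probe set naming them alone, among them UGT74F2, UGT75B1, UGT84A2 and UGT74E2, and are not analysed here.

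The arrays were Affymetrix ATH1 arrays of mature Col-0 leaves, from plants 3.5 weeks old grown in a 12 h photoperiod. The 4 SA arrays came from leaves sprayed with 0.5 mM SA in 0.02% Silwet, a wetting agent, and taken after 3, 6, 12 or 24 h. The 3 control arrays came from leaves sprayed with 0.02% Silwet alone and taken after 6 or 12 h, and from untreated leaves taken just before the spray. Each array was a pool of leaves from a few plants, and no condition had a second array. SA and Silwet were matched for spray and time at 6 h and 12 h only, so differences at 3 h and 24 h were read against untreated leaves and also hold the spray.

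Plant UGTs move a sugar from a UDP-sugar onto small molecules, which makes them more soluble, often less active, and ready for storage in the vacuole. Numbered families group enzymes by sequence, and neighbouring members often use related acceptors, such as hormones, flavonols, monolignols (the alcohol units of lignin) and hydroxycinnamic acids. SA itself is stored in leaves as glucose conjugates.

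All levels are log2 values from RMA, in which 1 unit is a 2-fold difference, and the median over all probe sets and arrays was 6.59. Over all 13513 probe sets the pairwise correlations of arrays ran between 0.909 and 0.976, and array medians lay within 0.0437 of each other. The 3′ excess of the GAPDH control probe sets, a measure of RNA integrity, was between 0.57 and 1.49 in SA arrays and between 0.85 and 1.78 in control arrays. That of the actin control probe sets was between 1.72 and 2.48 in SA arrays and between 1.83 and 2.39 in control arrays. All 7 measured photosynthesis genes were above the median on every array, with list means of 12.03 to 13.05 in SA arrays and 12.67 to 13.28 in control arrays. The guard cell and epidermis list had 4 measured members, with list means of 5.34 to 6.39 in SA arrays and 6.80 to 7.15 in control arrays. Its STOMAGEN, a gene for a peptide that promotes stomata, was between 4.99 and 8.38 in SA arrays and between 9.34 and 10.40 in control arrays. The list holds STOMAGEN for its role in stomata, and the cells that express it were not checked. STOMAGEN differed by -3.35 between SA and control arrays, against -0.72 for FMA, -0.16 for MUTE and -0.14 for SPCH. The gap in list means thus came mostly from STOMAGEN and is not read as a change in these cells. Differences above 0 were found for 0 of 7 photosynthesis genes, 0 of 4 genes of the guard cell and epidermis list, and 42.2% of all probe sets. The part of cell composition in the results was not tested. In both of these lists 0 members passed the limma test between SA and control arrays, which 1.33% of all probe sets passed. Lists for phloem and xylem, root, and flower, pollen and seed had no named probe set. In such bulk leaf samples a loss of cells of a type and a lower amount of RNA per cell cannot be told apart.

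SA leaves were first set against control leaves at whatever time they were taken. UGT87A2 (AT2G30140), known for an influence on flowering time and stress tolerance, was the 1 member of 38 that rose past the adjusted threshold of 0.05. It read 11.49, 11.75, 11.41 and 11.23 in SA leaves at 3, 6, 12 and 24 h, against 8.76 and 9.49 in Silwet leaves at 6 and 12 h and 9.18 in untreated leaves. The lowest SA array was thus well above the highest control array, and the SA arrays were close to each other at all 4 times. UGT87A2 averaged 11.47 ± 0.22 in SA arrays (SD, n = 4) and 9.15 ± 0.37 in control arrays (SD, n = 3), where the SD is a spread over times. The difference was 2.32 (SE 0.23), or 5.01-fold, with a limma adjusted p = 0.008. Among all 13513 probe sets 1.33% passed this threshold in either direction and 1.03% passed as higher, and UGT87A2 had the 119th largest difference. Leaving out 1 array at a time gave limma adjusted p between 0.00936 and 0.0409, all below the threshold.

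As a group the 38 genes lay on both sides of 0. In this comparison 20 of 38 had a difference above 0, where 42.2% of all probe sets did, and the median difference was 0.06, against -0.03 over all probe sets. At an unadjusted p under 0.05 in limma, 10 of 38 differed (7 higher and 3 lower), and 20.2% of all probe sets did. Every SA array lay above every control array for 6 members (UGT71B5, UGT71C1, UGT76D1, UGT76E1, UGT76E12 and UGT87A2), with 8.67% of all probe sets doing so, and below for 3 (UGT71C4, UGT76C1 and UGT85A7), with 9.41% of all. Of these, UGT71B5, UGT71C1, UGT76D1, UGT76E1 and UGT85A7 were below the median of all probe sets on every array. At least 2-fold higher were 4 members (UGT71B6, UGT71C1, UGT76E12 and UGT87A2), where 5.32% of all probe sets were, and at least 2-fold lower was 1 (UGT85A4), where 4.63% of all were. The arms differ in time composition and in spray as well as in SA, and the test error is the spread between times, not between plants.

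**Figure D1:**
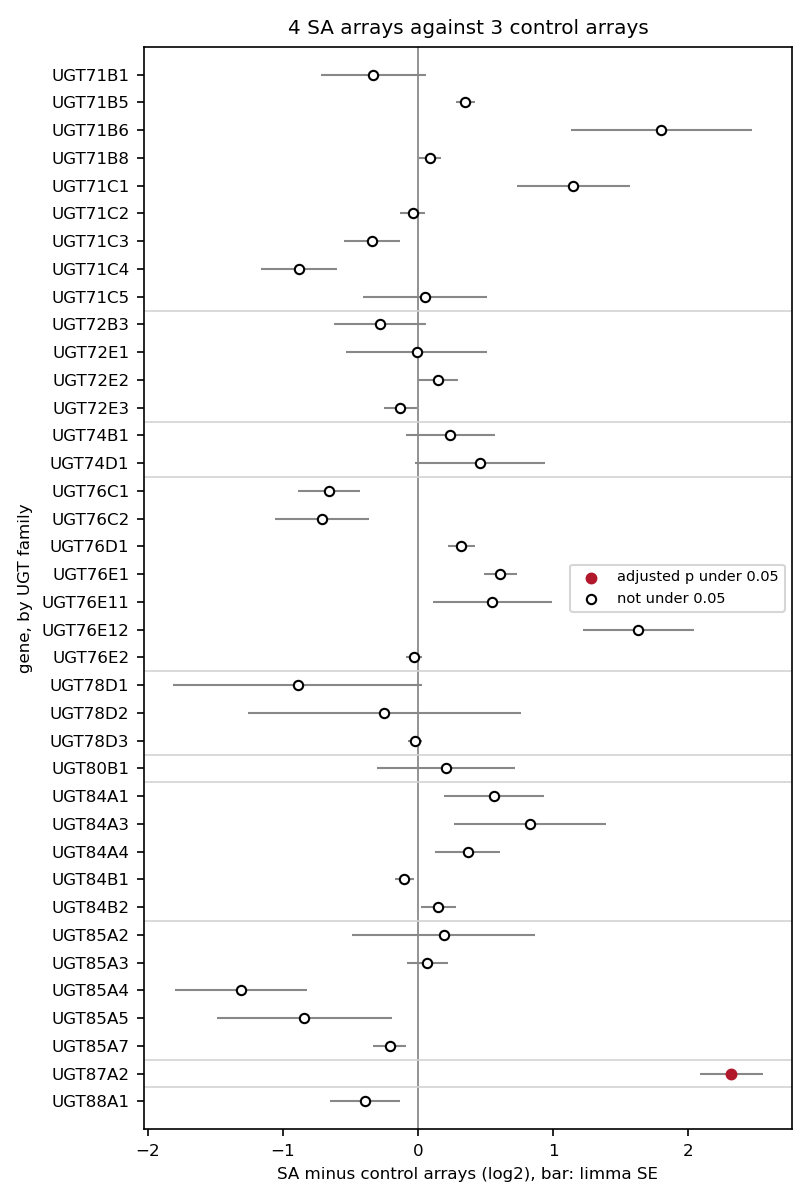
Difference between the 4 SA arrays and the 3 control arrays for the 38 UGT genes, in log2 units on the horizontal axis, with limma standard errors as bars and families parted by grey lines. UGT87A2, at 2.32, is the filled point, and in families 71, 72, 76, 84 and 85 genes lie on both sides of 0.

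At matched times few members were past 2-fold, as were few of all probe sets. At 6 h, 5 of 38 were at least 2-fold higher with SA than with Silwet, where 8.65% of all probe sets were, and 3 were at least 2-fold lower, where 8.68% of all were. At 12 h the counts were 3 higher, with 5.98% of all, and 3 lower, with 6.01% of all. Past 2-fold at both times were UGT87A2, UGT76E12 and UGT71B6 on the higher side (4.51% of all probe sets) and UGT78D1, UGT85A4 and UGT85A5 on the lower side (4.08% of all). Of the 38, 26 had the same sign at both times. The member medians were 0.01 at 6 h and -0.03 at 12 h, against -0.05 and -0.03 over all probe sets. Each of these pairs sets a single array against a single array and was not tested. The GAPDH 3′ excess was 0.62 in SA and 1.78 in Silwet at 6 h, and 1.49 in SA and 1.41 in Silwet at 12 h. The actin 3′ excess was 2.48 in SA and 2.39 in Silwet at 6 h, and 2.44 in SA and 1.84 in Silwet at 12 h. The 2 controls thus differ on which pair is less alike, and the part of RNA integrity in these differences was not tested.

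**Figure D2:**
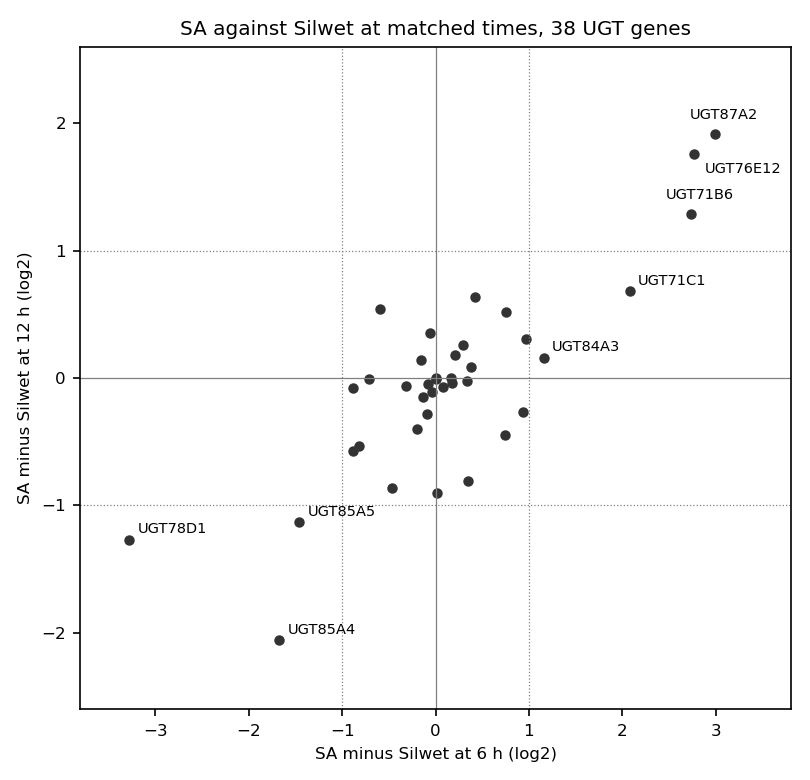
SA minus Silwet at 6 h (horizontal axis) and at 12 h (vertical axis) for the 38 UGT genes, in log2 units, 1 array against 1 array, with dotted lines at a 2-fold difference. UGT87A2, UGT76E12 and UGT71B6 lie past 2-fold at both times on the higher side, and UGT78D1, UGT85A4 and UGT85A5 on the lower side.

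Family 71 had 9 members, including the abscisic acid glucosyltransferases UGT71B6 and UGT71C5. None passed the limma test over all genes (4 of 9 had an unadjusted p under 0.05, as did 20.2% of all probe sets) and the median difference was 0.05. UGT71B6 (AT3G21780) read 8.93, 7.81, 6.86 and 5.86 in SA leaves at 3, 6, 12 and 24 h, against 5.08 and 5.56 in Silwet leaves at 6 and 12 h and 6.04 in untreated leaves. Its SA values were highest at 3 h, lower at each later time, and within the control range at 24 h. It was 2.73 (6.62-fold) higher with SA than with Silwet at 6 h and 1.29 (2.45-fold) at 12 h. Between the arms it differed by 1.80 (SE 0.67, limma adjusted p = 0.197), a spread that includes this decline.

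UGT71C1 (AT2G29750), which glucosylates flavonols and hydroxycinnamates in vitro, read 5.63, 6.43, 4.76 and 4.57 in SA leaves at 3, 6, 12 and 24 h, against 4.34 and 4.08 in Silwet leaves at 6 and 12 h and 4.15 in untreated leaves. All its SA arrays were above all control arrays, with the highest at 6 h. All 7 of its values were below the overall median, a range in which RMA compresses differences. It was 2.08 higher with SA than with Silwet at 6 h and 0.68 at 12 h, and differed by 1.15 between the arms (SE 0.42, limma adjusted p = 0.191).

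UGT71C5 (AT1G07240), the other abscisic acid enzyme, did not separate SA from control leaves. It read 9.69, 10.04, 9.13 and 8.17 in SA leaves at 3, 6, 12 and 24 h, against 9.30 and 9.58 in Silwet leaves at 6 and 12 h and 8.74 in untreated leaves. Its SA array was above Silwet by 0.74 at 6 h and below it by a difference of -0.45 at 12 h. UGT71C4 read 9.55, 10.21, 9.89 and 10.46 in SA leaves at 3, 6, 12 and 24 h, against 11.09 and 10.47 in Silwet leaves at 6 and 12 h and 11.16 in untreated leaves. Its 4 SA arrays were all below the 3 control arrays, but only narrowly at 24 h, and the difference of -0.88 (SE 0.28) had a limma adjusted p = 0.148. UGT71B1 was lowest at 3 h, with 8.12, 8.85, 9.52 and 9.37 in SA leaves at 3, 6, 12 and 24 h, against 8.95 and 9.80 in Silwet leaves at 6 and 12 h and 9.14 in untreated leaves. Its matched differences were small, -0.09 at 6 h and -0.28 at 12 h.

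The remaining family 71 genes varied little. UGT71C3, which glucosylates methyl salicylate, the volatile ester of SA, stayed between 5.00 and 5.10 in SA leaves and between 5.03 and 5.97 in control leaves, with Silwet at 6 h the 1 array that stood higher. UGT71B5 was between 5.15 and 5.31 in SA leaves and between 4.87 and 4.89 in control leaves, a small difference of 0.35 (SE 0.07, limma adjusted p = 0.0588) between groups that did not overlap. All its values were below the overall median. The whole range over 7 arrays was 0.18 for UGT71B8 and 0.33 for UGT71C2.

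Family 76 had 7 members outside UGT76B1, of which 0 passed the limma test over all genes (4 had an unadjusted p under 0.05, as did 20.2% of all probe sets) and 4 had a difference above 0, as did 42.2% of all. UGT76E12 (AT3G46660) was the furthest from its controls. It read 5.59, 7.32, 6.40 and 5.59 in SA leaves at 3, 6, 12 and 24 h, against 4.56 and 4.64 in Silwet leaves at 6 and 12 h and 4.60 in untreated leaves. Its 3 control values lay within 0.08 of each other and every SA array was above them, highest at 6 h. It was 2.77 (6.80-fold) higher with SA than with Silwet at 6 h and 1.76 (3.39-fold) at 12 h. Between the arms it differed by 1.63 (SE 0.41, limma adjusted p = 0.0897), the third largest such difference of the 38, from control levels in the compressed range.

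UGT76E11 (AT3G46670), which glucosylates flavonols, read 9.20, 9.78, 8.45 and 9.01 in SA leaves at 3, 6, 12 and 24 h, against 9.37 and 7.81 in Silwet leaves at 6 and 12 h and 8.51 in untreated leaves. SA and control values overlapped, and both SA and Silwet were higher at 6 h than at 12 h. UGT76E1 was between 4.62 and 5.04 in SA leaves and between 4.07 and 4.38 in control leaves, a difference of 0.61 (SE 0.12, limma adjusted p = 0.0616). UGT76D1, which glucosylates dihydroxybenzoates formed from SA, was between 5.44 and 5.66 in SA leaves and between 5.08 and 5.37 in control leaves. It differed by 0.32 (SE 0.10, limma adjusted p = 0.127), also without overlap and wholly below the overall median. UGT76E2 had a range of 0.11 over the 7 arrays.

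The cytokinin N-glucosyltransferases UGT76C1 and UGT76C2, which inactivate cytokinins, were on the lower side. UGT76C1 read 7.27, 7.71, 7.78 and 8.02 in SA leaves at 3, 6, 12 and 24 h, against 8.17 and 8.64 in Silwet leaves at 6 and 12 h and 8.25 in untreated leaves. Every SA array was below every control array, by a mean of -0.66 (SE 0.23, limma adjusted p = 0.179). UGT76C2 read 7.93, 7.77, 7.82 and 6.78 in SA leaves at 3, 6, 12 and 24 h, against 7.75 and 8.72 in Silwet leaves at 6 and 12 h and 8.40 in untreated leaves. It was lowest in SA at 24 h, -1.62 against untreated leaves, the 1 member at least 2-fold lower at that time (3.68% of all probe sets were). Its groups overlapped through the Silwet array at 6 h.

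**Figure D3:**
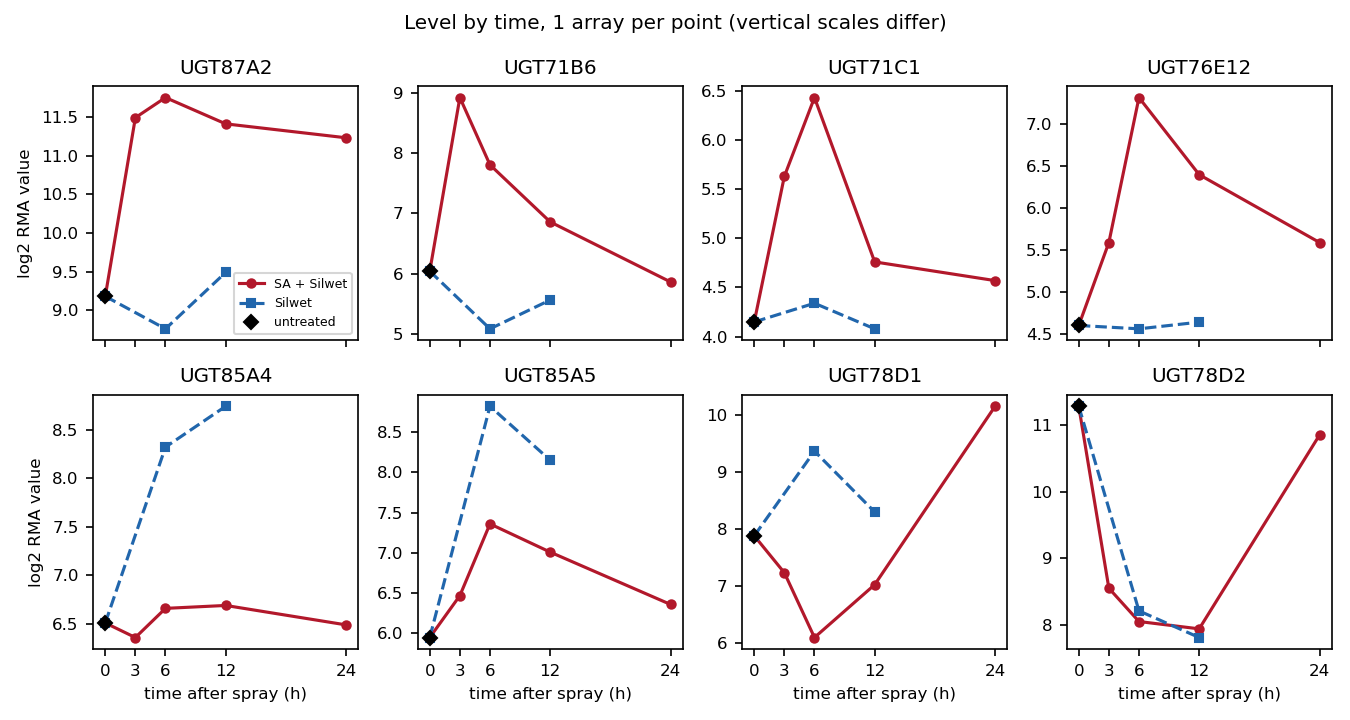
Log2 RMA level against time after the spray for 8 UGT genes, 1 array per point, with SA + Silwet in solid red, Silwet in dashed blue and untreated leaves as the black diamond at time 0 from which both lines start. UGT87A2 stays near 11.5 with SA, UGT71B6, UGT71C1 and UGT76E12 peak at 3 or 6 h, UGT85A4 and UGT85A5 are highest with Silwet, and UGT78D2 is high in untreated leaves and in SA leaves at 24 h.

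In family 85, UGT85A4 and UGT85A5 were highest in Silwet leaves, and UGT85A2 was high after either spray. Of its 5 members, 3 were at least 2-fold above untreated leaves in Silwet at both 6 h and 12 h (UGT85A2, UGT85A4 and UGT85A5), where 1.67% of all probe sets were. Silwet leaves at these times also differ from untreated leaves in time of day, which cannot be told apart from the spray. UGT85A4 (AT1G78270) read 6.36, 6.66, 6.69 and 6.49 in SA leaves at 3, 6, 12 and 24 h, against 8.32 and 8.74 in Silwet leaves at 6 and 12 h and 6.51 in untreated leaves. The SA arrays lay within 0.18 of the untreated array, and the 2 Silwet arrays were the high ones. SA was -1.67 (3.18-fold lower) against Silwet at 6 h and -2.06 (4.16-fold lower) at 12 h. Against all 3 control arrays UGT85A4 differed by -1.31 (SE 0.49, limma adjusted p = 0.197), the most negative of the 38, and did not pass. Without the untreated array it passed, at -1.99 (limma adjusted p = 0.0259, with 0.681% of all probe sets passing in that fit).

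UGT85A5 (AT1G22370) was lower with SA than with Silwet but above untreated leaves. It read 6.47, 7.36, 7.01 and 6.36 in SA leaves at 3, 6, 12 and 24 h, against 8.82 and 8.15 in Silwet leaves at 6 and 12 h and 5.95 in untreated leaves. SA was -1.46 against Silwet at 6 h and -1.13 at 12 h, while Silwet was 2.87 and 2.20 above untreated leaves at those times. Its neighbour UGT85A2 (AT1G22360) was high after either spray, with 8.77, 8.88, 8.23 and 7.48 in SA leaves at 3, 6, 12 and 24 h, against 9.59 and 8.24 in Silwet leaves at 6 and 12 h and 6.62 in untreated leaves. For UGT85A2 the SA minus Silwet difference was -0.71 at 6 h and -0.01 at 12 h. UGT85A3 and UGT85A7 varied by 0.49 each over the 7 arrays. Between the arms 0 of the 5 genes passed in limma, and 1, UGT85A4, had an unadjusted p under 0.05.

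Family 78 holds the flavonol 3-O-glycosyltransferases, which add the first sugar to flavonols in leaves: UGT78D1 adds rhamnose, UGT78D2 glucose and UGT78D3 arabinose. UGT78D1 (AT1G30530) read 7.23, 6.09, 7.02 and 10.16 in SA leaves at 3, 6, 12 and 24 h, against 9.37 and 8.30 in Silwet leaves at 6 and 12 h and 7.88 in untreated leaves. SA leaves were lowest at 6 h and higher at 24 h than any other array. SA was -3.28 (9.73-fold lower) against Silwet at 6 h and -1.27 (2.42-fold lower) at 12 h, and 2.29 above untreated leaves at 24 h. Silwet at 6 h was itself 1.5 above untreated leaves, so the 6 h difference holds that too. Between the arms these differences offset each other (-0.89, SE 0.92, limma adjusted p = 0.638).

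UGT78D2 (AT5G17050) was nearly equal with SA and with Silwet at matched times. It read 8.55, 8.05, 7.94 and 10.85 in SA leaves at 3, 6, 12 and 24 h, against 8.21 and 7.81 in Silwet leaves at 6 and 12 h and 11.28 in untreated leaves. Its high arrays were untreated leaves and SA leaves at 24 h, which were taken 24 h apart. SA minus Silwet was -0.16 at 6 h and 0.14 at 12 h. Silwet was -3.07 and -3.47 against untreated leaves at 6 h and 12 h, the 1 member at least 2-fold lower at both times (3.17% of all probe sets were). UGT78D3 read between 4.47 and 4.61 on all 7 arrays. In this family 0 of 3 genes passed in limma, and 0 had an unadjusted p under 0.05.

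Family 84 makes glucose esters of hydroxycinnamic acids such as sinapate (UGT84A1, UGT84A3 and UGT84A4) and of auxin (UGT84B1). None of its 5 measured genes passed in limma (0 had an unadjusted p under 0.05), and 4 had a difference above 0, where 42.2% of all probe sets did. UGT84A3 (AT4G15490) read 10.08, 10.80, 8.50 and 9.52 in SA leaves at 3, 6, 12 and 24 h, against 9.64 and 8.34 in Silwet leaves at 6 and 12 h and 8.71 in untreated leaves. It was high in SA at 3 h and 6 h, with SA 1.16 above Silwet at 6 h and 0.16 at 12 h. UGT84A1 read 6.77, 5.90, 5.27 and 6.67 in SA leaves at 3, 6, 12 and 24 h, against 5.56 and 5.29 in Silwet leaves at 6 and 12 h and 5.91 in untreated leaves. SA and Silwet were nearly equal for it at 12 h, and the higher SA arrays were those at 3 h and 24 h, times with no Silwet array. UGT84A4 read 7.74, 8.25, 7.61 and 7.80 in SA leaves at 3, 6, 12 and 24 h, against 7.50 and 7.09 in Silwet leaves at 6 and 12 h and 7.84 in untreated leaves, a spread of 1.16 with overlap. UGT84B1 read 5.11, 5.19, 5.09 and 5.2 in SA leaves at 3, 6, 12 and 24 h, against 5.27 and 5.14 in Silwet leaves at 6 and 12 h and 5.34 in untreated leaves, all within 0.26. UGT84B2 had a range of 0.62.

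Family 72 holds the monolignol glucosyltransferases UGT72E1, UGT72E2 and UGT72E3, and 0 of its 4 measured genes passed in limma (0 had an unadjusted p under 0.05). UGT72E1 (AT3G50740) read 10.11, 9.68, 7.92 and 8.73 in SA leaves at 3, 6, 12 and 24 h, against 9.33 and 8.73 in Silwet leaves at 6 and 12 h and 9.29 in untreated leaves. SA leaves held both the highest array (3 h) and the lowest (12 h), so the arms did not separate, with a difference of -0.01 (SE 0.52). UGT72E2 read 6.13, 6.63, 6.36 and 6.64 in SA leaves at 3, 6, 12 and 24 h, against 6.25 and 6.27 in Silwet leaves at 6 and 12 h and 6.36 in untreated leaves. UGT72E3 read 5.65, 5.52, 5.38 and 5.68 in SA leaves at 3, 6, 12 and 24 h, against 5.65 and 5.53 in Silwet leaves at 6 and 12 h and 5.88 in untreated leaves. For both genes SA and control values overlapped within a range of 0.51. UGT72B3 read 6.48, 7.75, 7.52 and 7.52 in SA leaves at 3, 6, 12 and 24 h, against 7.81 and 7.17 in Silwet leaves at 6 and 12 h and 7.82 in untreated leaves. Its 1 low array was SA at 3 h.

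Families 74, 80 and 88 were each measured by few genes, and 0 of these 4 passed in limma (0 had an unadjusted p under 0.05). UGT74B1 (AT1G24100), which adds glucose in glucosinolate synthesis, read 10.08, 10.36, 10.11 and 10.61 in SA leaves at 3, 6, 12 and 24 h, against 10.67 and 10.16 in Silwet leaves at 6 and 12 h and 9.30 in untreated leaves. Untreated leaves were the low array, and SA and Silwet differed by -0.32 at 6 h and -0.06 at 12 h. UGT74D1 (AT2G31750), which glucosylates auxins, read 10.19, 9.46, 9.31 and 10.64 in SA leaves at 3, 6, 12 and 24 h, against 8.52 and 9.58 in Silwet leaves at 6 and 12 h and 10.23 in untreated leaves. Its low array was Silwet at 6 h. The sterol glucosyltransferase UGT80B1 (AT1G43620) read 8.92, 9.34, 8.65 and 8.41 in SA leaves at 3, 6, 12 and 24 h, against 9.93 and 8.11 in Silwet leaves at 6 and 12 h and 7.84 in untreated leaves. Both sprays were highest at 6 h, where Silwet stood 2.09 above untreated leaves. UGT88A1 was between 10.78 and 11.66 in SA leaves and between 11.31 and 12.02 in control leaves.

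**Figure D4:**
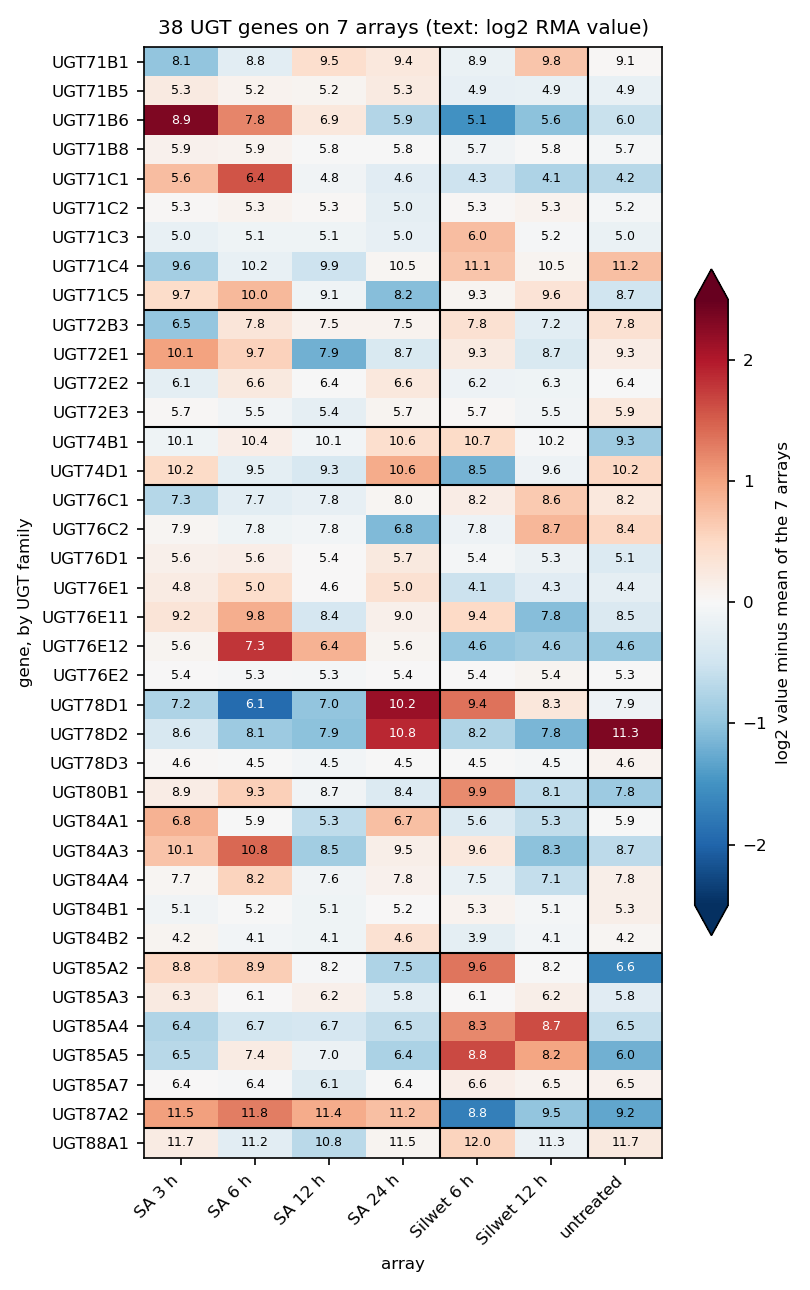
Log2 RMA value (printed) of each of the 38 UGT genes on each of the 7 arrays, coloured by its distance from that gene's mean over the arrays, with families parted by horizontal lines and SA, Silwet and untreated arrays parted by vertical lines. UGT87A2 is high on all 4 SA arrays, and 14 rows vary by less than 1 log2 unit.

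Against untreated leaves at the unmatched times, 6 members were at least 2-fold higher with SA at 3 h (UGT71B6, UGT71C1, UGT80B1, UGT84A3, UGT85A2 and UGT87A2), where 7.2% of all probe sets were, and 4 at least 2-fold lower (UGT71B1, UGT71C4, UGT72B3 and UGT78D2), where 6.65% of all were. At 24 h, 3 were higher (UGT74B1, UGT78D1 and UGT87A2), with 3.51% of all. Of these, UGT80B1, UGT85A2, UGT78D2, UGT74B1 and UGT78D1 were also past 2-fold in the same direction in Silwet at 6 h. Silwet alone was at least 2-fold above untreated leaves for 6 members at 6 h (3.75% of all) and 3 at 12 h (4.71% of all), and below for 2 at 6 h (4.7% of all) and 1 at 12 h (5.04% of all). Differences past 2-fold were therefore also seen without SA. Those of SA leaves at 3 h and of Silwet leaves also hold the time of day, and its part was not tested. Within 1 log2 unit over all 7 arrays were 14 of the 38, where 61.6% of all probe sets were, and 14 were below the overall median on every array, where 42.7% were.

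Neighbouring UGT genes on the chromosomes were set side by side in SA against Silwet. With at most 5 protein-coding genes between consecutive members, by gene order in RefSeq's assembly TAIR10.1, 25 of the 38 fell into 10 groups of neighbours with 15 neighbouring pairs, 11 of them directly adjacent. In SA against Silwet 8 pairs had 1 gene past 2-fold at 6 h and 5 pairs at 12 h, and 0 pairs had both. These pairs are not separate observations, since UGT71B6 and UGT85A5 at both times and UGT84A3 at 6 h each entered more than 1 pair. The count of pairs was not made over neighbours among all genes, so nothing particular to UGT genes is read from it. UGT71B6 was 2.73 higher at 6 h, with UGT71B1 at -0.09 and UGT71B8 at 0.17 on its sides. These are not directly adjacent. HYR1 and AT3G21770 lie between UGT71B1 and UGT71B6, and AT3G21790 between UGT71B6 and UGT71B8. These genes are left out by their symbols, which does not show whether they are UGTs. The genes next to UGT71B6 are thus not covered by this comparison. UGT76E12 was 2.77 higher beside UGT76E11 at 0.42, and UGT71C1 2.08 higher beside UGT71C2 at 0.08. UGT85A5 was -1.46 between UGT85A2 at -0.71 and UGT85A3 at 0.00. Some neighbours were alike at 1 of the matched times but less so at the other. SA minus Silwet was 1.16 for UGT84A3 and 0.75 for UGT84A4 at 6 h, and 0.16 and 0.52 at 12 h. It was -0.88 for both UGT71C4 and UGT71C3 at 6 h, and -0.57 and -0.08 at 12 h. For UGT76C2 and UGT76C1 it was -0.90 and -0.86 at 12 h, and 0.02 and -0.47 at 6 h. UGT71C3 was below the overall median on every array. In Silwet against untreated leaves the adjacent UGT85A2 and UGT85A5 were both past 2-fold, at 2.98 and 2.87 at 6 h and 1.62 and 2.20 at 12 h. Dim neighbours could hide smaller changes, since UGT71B8, UGT71C2 and UGT85A3 were below the overall median on every array.

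**Figure D5:**
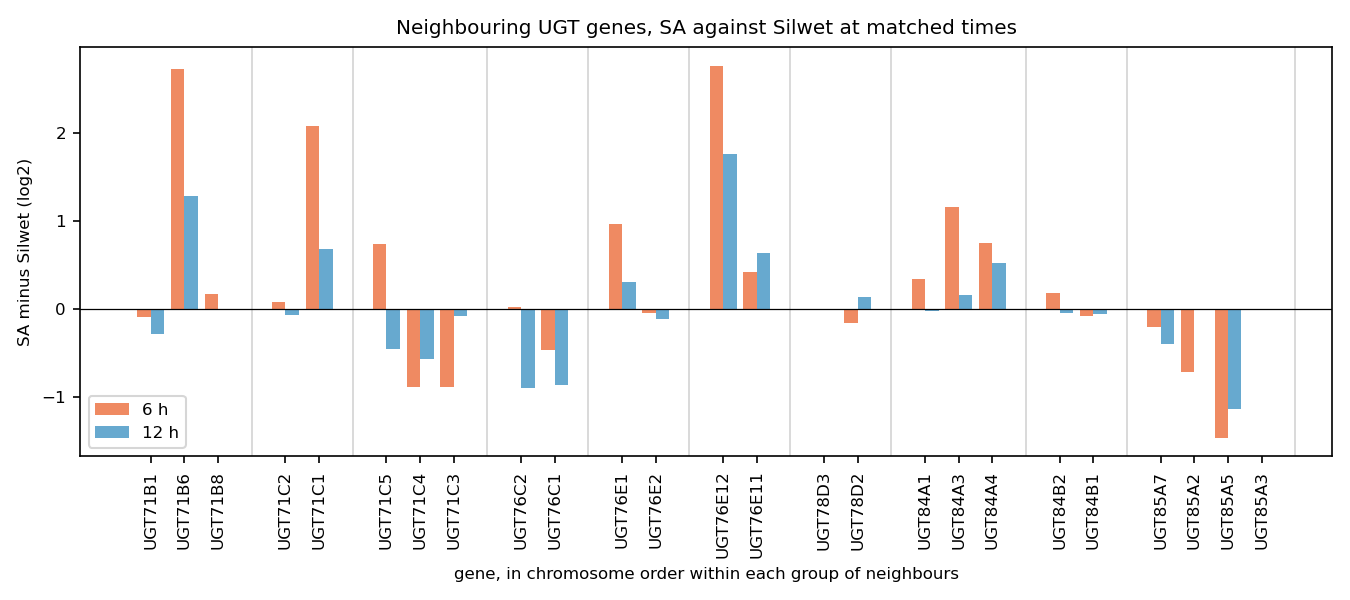
SA minus Silwet in log2 units at 6 h (orange) and 12 h (blue) for the 25 UGT genes that have a neighbouring UGT gene, in chromosome order within each group, with groups parted by grey lines. UGT71B6, UGT71C1, UGT76E12, UGT84A3 and UGT85A5 pass 2-fold at 6 h beside neighbouring members that do not, and genes outside the symbol rule are not shown.

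The UGT73 group, the nearest comparison, had 7 measured genes. Its median difference between SA and control arrays was 1.90, beside 0.06 for the 38. At 6 h 6 of its 7 genes were at least 2-fold higher with SA than with Silwet, beside 5 of the 38 and 8.65% of all probe sets. At 12 h 4 of 7 were, beside 3 of 38 and 5.98% of all. UGT73B1 was at least 2-fold lower at 12 h, where 6.01% of all were. In limma 1 of the 7 passed over all genes, as did 1.33% of all probe sets. The difference between these groups was not tested.

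Few other genes of glycoside metabolism had a named probe set. Of 20 beta-glucosidase genes, enzymes that can release the sugar again, 9 had a difference above 0, as did 42.2% of all probe sets, and the median was -0.01. In limma 1 passed as higher (1.03% of all did) and 0 as lower (0.303% of all did). The 1 was BGLU45 (AT1G61810), which cleaves monolignol glucosides. It read 6.35, 5.57, 7.01 and 6.14 in SA leaves at 3, 6, 12 and 24 h, against 4.31 and 4.13 in Silwet leaves at 6 and 12 h and 4.43 in untreated leaves. It differed by 1.98 (SE 0.30, limma adjusted p = 0.0351), and the call ended without the untreated array (adjusted p = 0.0712), Silwet at 6 h (adjusted p = 0.119), Silwet at 12 h (adjusted p = 0.136) or SA at 3 h (adjusted p = 0.087) in limma. It also ended in limma without the trended prior (adjusted p = 0.0535) and with a time-of-day block (adjusted p = 0.0646). Of the UDP-sugar supply list 1 of 41 entries had a named probe set (USP, 0.13, limma adjusted p = 0.827). Of the phenylpropanoid and monolignol list 1 of 24 had (HCT, -0.03, adjusted p = 0.972 in limma). Of 25 flavonoid entries 3 had, BAN, CHIL and DFR, and 0 passed in limma, with adjusted p of 0.824, 0.855 and 0.324. Entries without a named probe set may still be on the array, since 8794 probe sets named no gene. CHIL, whose product aids chalcone synthase, read 7.33, 6.28, 6.20 and 9.95 in SA leaves at 3, 6, 12 and 24 h, against 6.66 and 6.38 in Silwet leaves at 6 and 12 h and 8.14 in untreated leaves. As for UGT78D2, its high arrays were SA at 24 h and untreated leaves. No gene of the conjugate transport list had a named probe set.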

How the data were processed

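The authors deposited log2 expression values of 22810 probe sets on 7 arrays, made with RMA in the affy package (background correction, quantile normalisation, probe set summary), per the submitters' processing notes; a version is not given in the sources used here. Quantile normalisation hides changes shared by most genes and compresses differences of dim probe sets. Arrays have no read depth, and their number limits the precision. Genes were named from the platform annotation, with 13513 probe sets naming 1 gene, 503 several and 8794 none; 13436 of the 13513 matched RefSeq (GCF_000001735.4), all 38 members among them. The 4 SA arrays were tested against the 3 control arrays with limma 3.58.1 in R 4.3.3 (lmFit, eBayes with a trended prior, two-sided, Benjamini-Hochberg over all 13513, threshold 0.05). The fit was also run on simulated data with independent noise. That run cannot show how the fit behaves on arrays that differ in time and spray within an arm. Single-array differences have no test and count as past 2-fold from 1 log2 unit. The members and lists were chosen with earlier results of these data known. Values on all arrays are given for members that pass the test, are past 2-fold at both matched times, have the 3 largest rises or falls, are past 2-fold at 3 h or 24 h but not with Silwet, are past 2-fold with Silwet at both times, or are on a list of enzymes with known substrates, of which UGT71B6, UGT71C1, UGT71C5, UGT72E1, UGT72E2, UGT72E3, UGT74B1, UGT74D1, UGT76C1, UGT76C2, UGT76E11, UGT78D1, UGT78D2, UGT80B1, UGT84A1, UGT84A3, UGT84A4, UGT84B1 and UGT87A2 were measured; others are given by range. STOMAGEN, UGT73B1, BGLU40, BGLU45 and CHIL were singled out after their values were seen. The symbol FDH matched formate dehydrogenase and was left out of the epidermis list. Alternatives were the prior, the probe sets fitted, a filter on dim ones, array centring, a time-of-day block, leaving out each array, the control array and the fold.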

Additional observations from a re-analysis of the deposited data

Results flagged for a closer look

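UGT78D1 lay on opposite sides of untreated leaves early and late after SA. Relative to untreated leaves, SA leaves differed by -0.65 at 3 h and by 2.29 at 24 h, each past 1.5-fold, as in 0.969% of all 13513 probe sets (131). With 1 array at each time the difference between the times was not tested, and both share the untreated array. Both differences also hold the spray, and the one at 3 h holds the time of day. At 6 h and 12 h against Silwet 0 members had opposite signs past 1.5-fold.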

How the results depend on the processing

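The number of UGT genes that passed between SA and control arrays was 1 in the fits with no trend, all probe sets, bright probe sets only, centred arrays or a time-of-day block, and between 1 and 2 when an array was left out, the second gene being UGT85A4 without the untreated array. UGT87A2 passed in every one of these fits, at differences from 2.13 to 2.5, with its highest limma adjusted p = 0.0476 under the time-of-day block. In that fit SA at 3 h, alone at its clock time, adds nothing to the difference. The fits differed widely in how many of all probe sets passed, from 17 without Silwet at 12 h to 681 without SA at 24 h, against 180 with all arrays, 395 with all probe sets and 348 with bright ones. At 1.5-fold in place of 2-fold, SA against Silwet gave 9 higher and 8 lower at 6 h and 5 higher and 6 lower at 12 h, SA against untreated leaves gave 12 higher at 3 h and 8 higher and 2 lower at 24 h, and Silwet against untreated leaves gave 4 lower at 6 h and 6 higher and 7 lower at 12 h, by construction of the lower threshold. With the mean of both Silwet arrays as control in place of untreated leaves, 7 were lower at 3 h, and 5 higher and 5 lower at 24 h; the cause was not tested. Counting 1 probe set per gene changed nothing, since each gene had 1. The time-of-day block, which sets the arms against each other within clock times, is the paired fit; the labels give no replicate numbers.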

Other observations

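Of the genes that RefSeq names otherwise but lists as UGTs by synonym, or describes as a UDP-glucose glucosyltransferase of auxin (IAGLU), 5 had a named probe set and lay outside the symbol rule. IAGLU (AT4G15550), which forms the glucose ester of indole-3-acetate, read 11.68, 11.38, 9.78 and 10.49 in SA leaves at 3, 6, 12 and 24 h, against 7.64 and 9.18 in Silwet leaves at 6 and 12 h and 10.08 in untreated leaves. SA was 3.74 above Silwet at 6 h and 0.60 at 12 h, and Silwet at 6 h was the low array, -2.44 against untreated leaves. GT72B1 (AT4G01070), which glucosylates chlorinated phenols and monolignols, read 12.47, 12.12, 11.04 and 11.40 in SA leaves at 3, 6, 12 and 24 h, against 9.88 and 9.75 in Silwet leaves at 6 and 12 h and 11.06 in untreated leaves. SA was 2.23 above Silwet at 6 h and 1.29 at 12 h, while Silwet was -1.18 and -1.31 against untreated leaves. The sterol glucosyltransferase SGT (AT3G07020) was between 8.42 and 8.69 in SA leaves and between 9.03 and 9.60 in control leaves, without overlap. In limma 0 of the 5 passed, with adjusted p of 0.181 for IAGLU, 0.124 for GT72B1, 0.0949 for SGT, 0.996 for UF3GT and 0.464 for AT5G54010. BGLU40 (AT1G26560) was high on the same arrays as UGT78D2, with 10.33 in SA leaves at 24 h and 10.45 in untreated leaves, and between 7.77 and 9.05 on the other arrays.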
